A study of Mus musculus with 95 samples.

Results

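The genes that encode the proteins of the mitochondrial ribosome were chosen by name: every symbol in the deposited expression tables that starts with Mrpl or Mrps followed by a digit. There were 73 such genes among 25407 symbols, 45 named for the large subunit (Mrpl) and 28 named for the small subunit (Mrps). Expression was measured by RNA-Seq in sciatic nerve (SCN) and dorsal root ganglia (DRG), and in the kidney in cortex and in glomeruli purified from it, of male mice of the BKS.Cg-m +/+ Leprdb/J line at 16 weeks of age. The groups were db/db mice that received 11 weeks of pioglitazone in the diet at 15 mg/kg (db/db PIO), untreated db/db mice, db/+ mice given the same diet (db/+ PIO) and untreated db/+ mice, with 6 libraries each per tissue except for 5 in DRG of db/db mice, 95 in all. Mice of the db/db genotype lack the long, signalling form of the leptin receptor in every cell and become obese and diabetic, while db/+ mice carry 1 mutant copy and serve as the non-diabetic reference. Pioglitazone is a thiazolidinedione that activates the nuclear receptor PPAR gamma.

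Mitochondrial ribosomes translate the few proteins that mitochondrial DNA encodes, all of them subunits of the respiratory chain and of ATP synthase. Their RNA comes from mitochondrial DNA, but every one of their proteins is encoded in the nucleus, made in the cytosol and imported. Some of these proteins have a counterpart of the same number in the bacterial ribosome and others are found only in mitochondria, and the symbol does not always match the place of the protein: in mammalian structures Mrps18a and Mrps30 sit in the large subunit. Kidney tubules are rich in mitochondria, and peripheral nerve and sensory neurons depend on them along long axons.

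Every measurement was an FPKM value, the number of fragments scaled by transcript length and by the mapped fragments of the library. An exact 0 was read as missing, since genes that every cell uses were also listed at 0. Of 6935 member entries 64.0% were at 0, against 67.2% over all symbols. The following 11 members were at 0 in all 95 libraries: Mrpl10, Mrpl13, Mrpl21, Mrpl24, Mrpl27, Mrpl48, Mrpl51, Mrpl55, Mrps10, Mrps17 and Mrps21. Of the other 62, 0 had a value in every library and 25 had a value in 50% of them or more. The members with a value in a given library numbered 16 to 44 for SCN, 15 to 34 for DRG, 23 to 37 for glomeruli and 16 to 42 for cortex libraries. Of the 73 members 44 passed the filter on low values in at least 1 comparison, 9 were tested in all 16 comparisons within a tissue (Mrpl16, Mrpl19, Mrpl34, Mrpl43, Mrpl44, Mrpl50, Mrpl54, Mrps24 and Mrps26), and 18 with some values were never tested. The counts below therefore speak of the members tested and not of the whole ribosome.

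The summed FPKM of a library ranged between 141469 and 260274 in SCN, 140164 and 269263 in DRG, 129009 and 193784 in glomeruli and 184748 and 601310 in cortex, where db/db replicate 6 held the highest sum. Several defining markers of the tissues were listed at 0, among them Nphs1 of podocytes in all glomerular libraries and 9 of 10 sensory neuron markers in all DRG libraries, so that the labelled tissues could be checked only in part. In SCN the summed Schwann cell markers ranged between 9432 and 40750 FPKM, and in glomeruli the summed podocyte markers reached 2476 FPKM or more in all groups except db/db, in which at least 1 library had no value for any of them. Marker sums add only the listed values and a missing entry adds nothing, so sums over different markers describe the files and not the amount of a cell type. In whole tissue, fewer cells of a type and less RNA per cell cannot be told apart.

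The 73 members lay on 17 chromosomes, with at most 10 on any of them, in the annotation of the build used for the files (NCBIM37, GENCODE M1). Of the 73, 21.9% had a protein-coding neighbour on the other strand that starts within 1000 bases upstream, against 7.15% of all 22380 protein-coding genes. Mrpl50 (chr4:49525468-49533965, minus strand) shared its start region with Zfp189 in this way. Mrps18a (chr17:46247935-46265859), Mrpl16 (chr19:11844881-11849434), Mrpl34 (chr8:73988825-73989651) and Mrpl54 (chr10:80727458-80729679, minus strand) shared no exonic base with another gene. Mrpl12 (chr11:120345927-120350379) shared 13.1% of its exonic bases with Gm16755, and Mrpl43 (chr19:45079504-45080932, minus strand) shared 8% with Peo1, the mitochondrial DNA helicase Twinkle. The library kit did not mark strand, so reads from such shared stretches cannot be told apart. The values of Mrps34, with 77.8% of its exonic bases shared with Mapk8ip3 and Nme3, and of Mrps25, with 53.7% shared with Nr2c2, are uncertain for the same reason.

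Promoters are shown for 6 of the members called in the comparisons below. Other called members are not shown, Mrpl16 among them, which held none of the motifs searched. The sequences are those of RefSeq for GRCm38.p6, run 5′ to 3′ on the strand of the gene, and cover 250 bases before and 50 bases after the start, with capitals for the motifs searched. They lie at chr4:49521034-49521333 (minus strand, Mrpl50), chr17:46110754-46111053 (plus strand, Mrps18a), chr19:45006393-45006692 (minus strand, Mrpl43), chr11:120484387-120484686 (plus strand, Mrpl12), chr8:71464676-71464975 (plus strand, Mrpl34) and chr1:79775768-79776067 (plus strand, Mrpl44).
Mrpl50: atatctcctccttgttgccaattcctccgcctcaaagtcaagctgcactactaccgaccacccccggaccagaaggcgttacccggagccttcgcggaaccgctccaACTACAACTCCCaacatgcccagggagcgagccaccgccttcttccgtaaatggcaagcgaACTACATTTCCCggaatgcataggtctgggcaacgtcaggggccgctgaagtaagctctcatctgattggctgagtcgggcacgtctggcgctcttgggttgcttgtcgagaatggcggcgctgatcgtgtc
Mrps18a: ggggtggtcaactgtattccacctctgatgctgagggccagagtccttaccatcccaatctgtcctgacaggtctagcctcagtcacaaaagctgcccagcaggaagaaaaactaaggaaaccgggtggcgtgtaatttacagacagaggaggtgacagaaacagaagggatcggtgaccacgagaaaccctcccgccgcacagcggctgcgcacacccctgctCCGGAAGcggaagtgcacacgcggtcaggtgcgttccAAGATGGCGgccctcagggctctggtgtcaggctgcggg
Mrpl43: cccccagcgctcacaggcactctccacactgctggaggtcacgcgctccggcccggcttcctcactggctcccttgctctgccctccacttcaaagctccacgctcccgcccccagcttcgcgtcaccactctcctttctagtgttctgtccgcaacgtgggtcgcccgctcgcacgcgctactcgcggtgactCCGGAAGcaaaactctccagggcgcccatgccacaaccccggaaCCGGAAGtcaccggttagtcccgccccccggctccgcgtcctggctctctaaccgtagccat
Mrpl12: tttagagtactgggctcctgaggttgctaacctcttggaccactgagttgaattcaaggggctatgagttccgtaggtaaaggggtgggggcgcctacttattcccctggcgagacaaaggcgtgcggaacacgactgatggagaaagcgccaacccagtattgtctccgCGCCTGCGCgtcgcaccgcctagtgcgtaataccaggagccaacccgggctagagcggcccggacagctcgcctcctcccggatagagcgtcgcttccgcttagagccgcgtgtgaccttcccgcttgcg
Mrpl34: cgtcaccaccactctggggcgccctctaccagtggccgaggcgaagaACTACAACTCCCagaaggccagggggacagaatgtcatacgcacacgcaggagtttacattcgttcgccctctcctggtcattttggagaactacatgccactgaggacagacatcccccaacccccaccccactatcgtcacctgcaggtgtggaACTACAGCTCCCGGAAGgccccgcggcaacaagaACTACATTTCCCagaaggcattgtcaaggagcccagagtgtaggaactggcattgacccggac
Mrpl44: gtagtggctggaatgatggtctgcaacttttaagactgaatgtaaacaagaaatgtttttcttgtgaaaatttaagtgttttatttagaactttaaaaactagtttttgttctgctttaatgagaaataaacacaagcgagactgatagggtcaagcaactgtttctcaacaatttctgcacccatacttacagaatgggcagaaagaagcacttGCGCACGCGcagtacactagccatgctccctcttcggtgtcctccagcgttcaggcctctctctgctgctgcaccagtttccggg
Entries were found for 64 of the 73 members and for 27025 symbols in all, and both strands were searched. The core motif of NRF1, a factor known for genes of mitochondrial proteins, was searched as GCGCANGCG and stood in 15 of the 64 members (23.4%), against 7.03% of all symbols. The ETS core of GABPA, CCGGAAG, stood in 23 (35.9%), against 9.93% of all. YY1, AAGATGGCG, was found in 7 (10.9%), against 1.64%, and the ESRRA motif TCAAGGTCA in 0 of 64, against 0.466%. In the promoters printed, Mrpl12 and Mrpl44 held the NRF1 letters, Mrpl43 held the GABPA letters at 2 places, Mrpl34 held them once, and Mrps18a held both the GABPA and the YY1 letters. Mrpl50 held none of these 4 motifs. The core of the motif bound by ZNF143 was searched after these sequences had been read. It stood at 2 places in Mrpl50, as ACTACAACTCCC and ACTACATTTCCC, and at 3 in Mrpl34. It was found in 4 of the 64 members (6.25%), against 2.08% of all symbols. In Mrpl34 the last 2 bases of one of these matches are also the first 2 of the GABPA letters, so that the capitals run on. These matches are descriptions of the letters in the windows.

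In db/+ mice 14 members had at least 3 values in every tissue, and most were highest in cortex and lowest in SCN. Cortex was highest for 12 of the 14 (85.7%), against 20.3% of 1716 genes of any kind compared in the same way. In 10 of these 12 every cortex library with a value lay above every such library of the next tissue. The share of all genes separated in this way was not computed, and some of these ranges rest on only 3 libraries with a value. SCN was lowest for 12 of the 14, against 19.6% of all genes. The median ratio over the 14 members was 2.64 for cortex over SCN and 1.76 for cortex over glomeruli, while over all genes these ratios were 0.853 and 0.723. Depth per library was not used here and FPKM is relative to each library, so these ratios compare shares of the measured RNA.

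Mrpl50, a large-subunit protein with no bacterial counterpart, had the steepest order of the 14, with a median of 72.8 FPKM in cortex, 20.1 in DRG, 17.1 in glomeruli and 11.8 in SCN, and no range touched the next. Mrpl16, the counterpart of a bacterial protein near the peptidyl transferase centre, stood at 62.1 FPKM in cortex, 23.7 in DRG, 23.4 in glomeruli and 12.9 in SCN, and its DRG and glomerular ranges overlapped. Mrpl43 was the flattest, at 38.5 FPKM in cortex, 33.1 in DRG, 32.6 in SCN and 28.3 in glomeruli, where cortex, DRG and SCN overlapped in turn. Mrpl35 and Mrpl19 were highest in DRG, at 12.0 and 5.87 FPKM, with ranges that overlapped those of cortex at 11.8 and 4.96 FPKM. Across the members with a value the highest medians in db/+ mice were 214 FPKM for Mrpl12 in cortex, the value of a single library, and for Mrpl52 182 FPKM in glomeruli (2 libraries with a value), 134 FPKM in SCN (5 libraries) and 76.9 FPKM in DRG (4 libraries). The lowest median was that of Mrpl19 in SCN, glomeruli and cortex, at 2.61, 4.46 and 4.96 FPKM, and that of Mrpl17 in DRG, at 5.66 FPKM. FPKM scales each value by transcript length. Of these extremes, Mrpl52 had 412 annotated exonic bases and Mrpl12 had 1532, against 5450 for Mrpl19 and 4153 for Mrpl17. Whether length still enters the order of the genes was not tested.

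**Figure D1:**
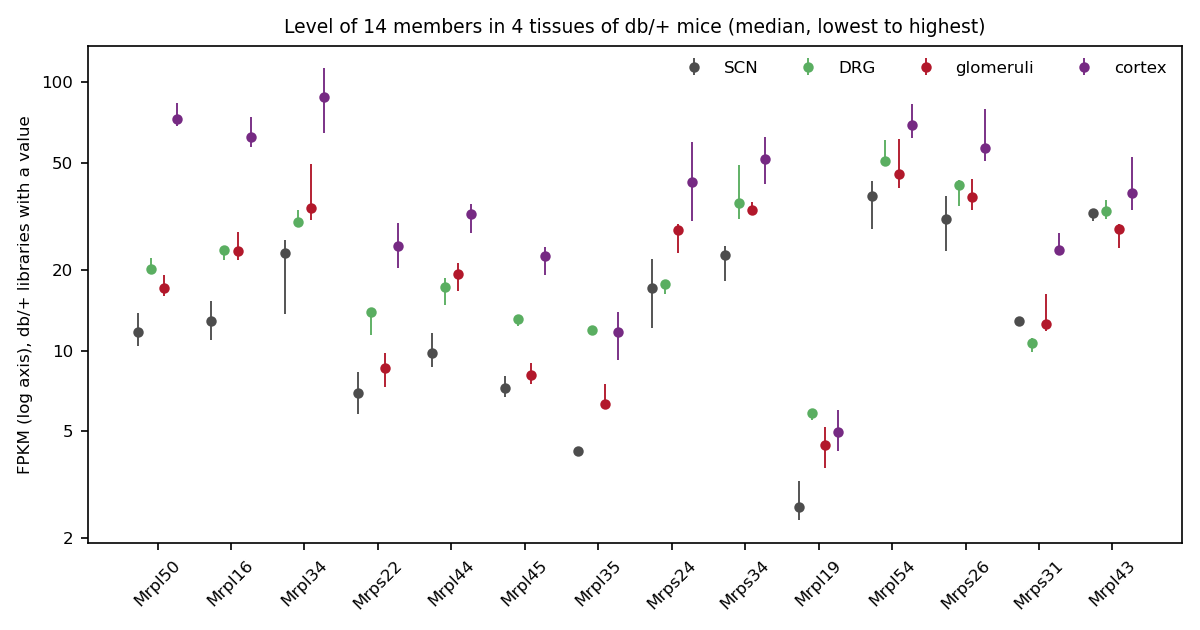
FPKM on a log axis of the 14 members with at least 3 values in each tissue of db/+ mice, as the median (point) and the lowest to highest library (bar), ordered by the ratio of cortex to SCN. Cortex was highest for 12 of the 14, by 6.19-fold over SCN for Mrpl50 at the left and by 1.18-fold for Mrpl43 at the right.

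The comparisons below used limma on log2(FPKM + 1), with adjusted p-values from Benjamini-Hochberg adjustment over all genes tested in a comparison and a threshold of 0.05. On this scale the fold change of a gene with a low FPKM comes out too small. The calls rest on reading a 0 as missing: all 27 calls of members named by rule were lost when each 0 was entered as a value. Counts of members called under other settings, or without a library, stand here without the share of all genes called in that fit. In all 16 comparisons within tissues the members moved by small amounts, with log2 fold changes between −0.70 and 0.61, as the plot of the members in 16 comparisons shows. Members share each library, so counts of members with the same sign describe the libraries and carry no test.

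**Figure D2:**
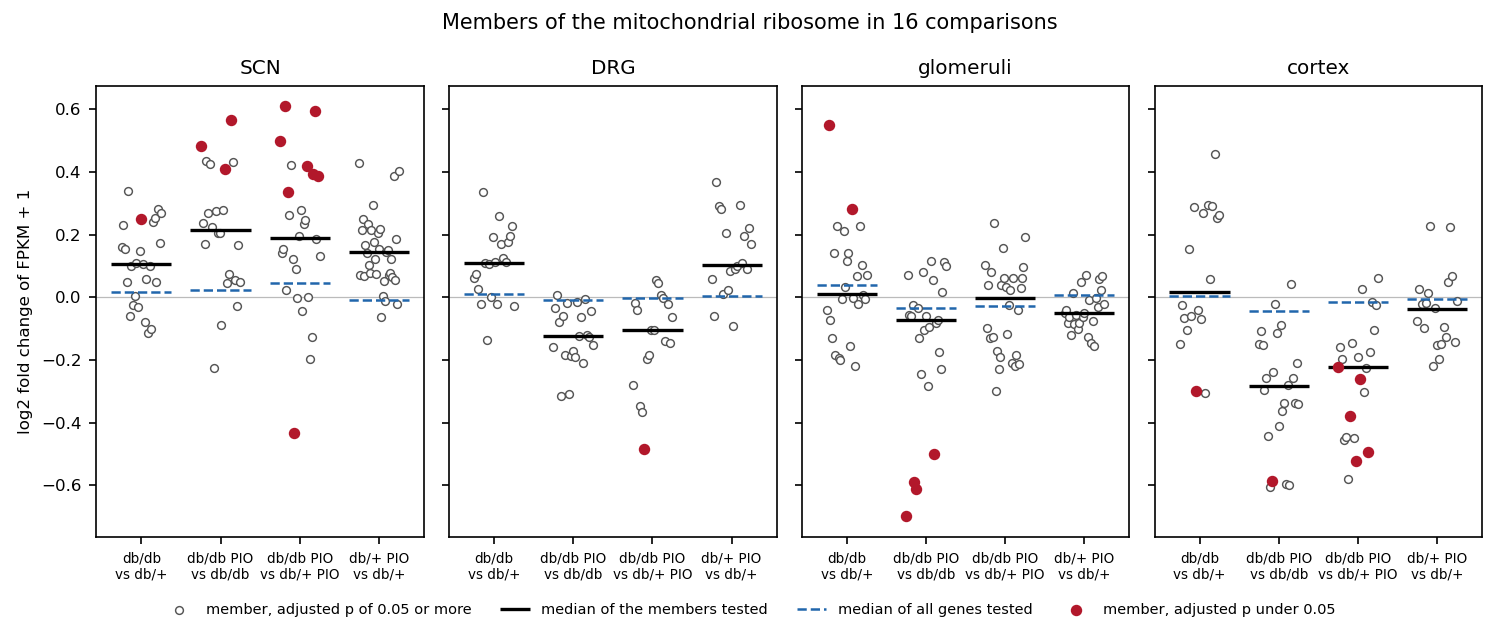
Log2 fold change of FPKM + 1 of every member tested, for the 4 comparisons in each of the 4 tissues. Filled points passed an adjusted p of 0.05, the black line is the median of the members tested and the dashed line the median of all genes tested. The members of SCN lay mostly above the median of all genes in all 4 comparisons, and those of cortex lay below it in db/db PIO against db/db and against db/+ PIO.

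In SCN of db/db mice, diabetes was accompanied by a call for 1 of the 25 members tested (4%), a rise of Mrpl43, where 14.9% of all 4233 genes tested were called, 7.63% higher and 7.28% lower. Mrpl43 is a large-subunit protein found only in mitochondria. It had 38.8, 47.95, 37.5, 35.4 and 33.4 FPKM in SCN of db/db mice, against 30.5, 31.4, 33.0, 32.6 and 32.9 FPKM in SCN of db/+ mice. Every db/db library lay above every db/+ library, the nearest by less than 1 FPKM. The log2 fold change was 0.25 ± 0.07 (SE; limma, adjusted p = 0.0275), and the call was lost in 4 of 24 fits that left out 1 library, with adjusted p up to 0.0621. It was also lost in a limma fit to these groups alone (adjusted p = 0.0988) and with array weights (adjusted p = 0.0540). Of the 25 members 19 had a positive fold change and their median was 0.11, against 0.02 over all genes. Quantile normalization called 20 of the 25 higher, with a median of 0.55 (0.51 over all genes) and 97.8% of the calls over all genes higher, against 51.2%. Ppargc1b, a coactivator of nuclear genes for mitochondrial proteins, rose by 0.35 ± 0.10 (SE; limma, adjusted p = 0.0228), and none of the other genes of mitochondrial translation and its control tested in this comparison was called.

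Pioglitazone in db/db mice raised 3 of the 22 members tested in SCN (13.6%), Mrpl50, Mrps18a and Mrpl16, and lowered 0, where 10.1% of all 3940 genes were called, 6.5% higher and 3.63% lower. Mrpl50 had 15.6, 17.0 and 18.9 FPKM as lowest, median and highest of 6 in SCN of db/db PIO mice, against 11.0, 12.2 and 15.4 FPKM in db/db mice. The ranges did not touch, and the db/+ PIO libraries, at 11.4 to 14.8 FPKM, and the db/+ libraries, at 10.4 to 13.9 FPKM, stood with the untreated db/db libraries. The log2 fold change was 0.41 ± 0.08 (SE; limma, adjusted p = 0.00271), with all 6 db/db PIO libraries above the highest db/db library.

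Mrps18a, one of the proteins related to bacterial S18, had 32.6, 33.9 and 30.4 FPKM in the 3 SCN libraries of db/db PIO mice with a value, against 23.3, 19.95, 23.3, 24.8 and 16.9 FPKM in db/db mice. The groups did not overlap, with a log2 fold change of 0.56 ± 0.12 (SE; limma, adjusted p = 0.00641). The other 3 db/db PIO libraries had no value for this gene. Mrpl16 had 25.3, 19.6, 22.6 and 20.6 FPKM in db/db PIO mice, against 12.2, 16.0 and 17.3 FPKM as lowest, median and highest of 6 in db/db mice. These groups did not overlap either, and the log2 fold change was 0.48 ± 0.11 (SE; limma, adjusted p = 0.0102). Each of these 3 calls held in all fits without 1 library in which the gene was tested. Mrps18a was not tested in fits that left out 1 of its 3 db/db PIO libraries, since 3 values were needed in each group. Quantile normalization lost all 3 calls (limma, adjusted p = 0.301 to 0.469).

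Of the 22 members 19 had a positive fold change, with a median of 0.22, against 0.02 over all genes tested, and 10 had an unadjusted p under 0.05. By name, the 15 tested with an Mrpl symbol had a median of 0.24 and the 7 with an Mrps symbol, Mrps18a among them, of 0.08. Respiratory chain genes moved in the same direction in this comparison. Of 9 complex I subunits 4 rose, with a median of 0.46, and 4 of 10 subunits of complexes II to V, with a median of 0.30, while 0 of 20 cytosolic ribosomal proteins passed the test (limma, 2 at an unadjusted p under 0.05), with a median of 0.08. Among the partners of the mitochondrial ribosome, the elongation factor Gfm1 rose by 0.59 ± 0.12 (SE; limma, adjusted p = 0.00996), as did Gars, the glycyl-tRNA synthetase of cytosol and mitochondria, by 0.53 ± 0.08 (SE; limma, adjusted p = 0.00138) and Ppargc1b by 0.35 ± 0.10 (SE; limma, adjusted p = 0.0270). Each of these 3 was the only gene called in its list, of 2 translation factors, 5 synthetases and 3 nuclear regulators tested.

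Fat markers moved with the same groups. Fabp4, the only one of 8 white adipocyte markers with a value in both groups, summed to 7230 to 16830 FPKM in SCN of db/db PIO mice, against 2428 to 8591 FPKM in db/db mice, with 7 of the 8 listed at 0 in both. The 7 brown adipocyte markers summed to 0.420 to 279 FPKM, median 126, in db/db PIO mice, where 1 to 4 of them had a value in a library, against 5.81 to 49.6 FPKM, median 26.5, in db/db mice, where 4 to 6 had one, and both of the 2 that could be tested were called higher. Prdm16 was at 0 in every library of both groups. Their part in the rise of the members was not tested.

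Between the pioglitazone-fed groups, 7 of the 26 members tested in SCN were higher in db/db PIO than in db/+ PIO mice and 1 was lower (30.8% called), where 33.8% of all 4402 genes were called, 20.6% higher and 13.2% lower. Mrpl50 was again higher, at 0.42 ± 0.08 (SE; limma, adjusted p = 0.000367), as was Mrpl16 at 0.50 ± 0.12 (SE; limma, adjusted p = 0.00299). This comparison shares the db/db PIO libraries with the one above. Mrpl20, the counterpart of a bacterial assembly protein of the large subunit, had 98.9, 81.5, 70.6 and 60.6 FPKM in db/db PIO mice, against 40.2, 49.2, 67.5, 54.5 and 42.5 FPKM in db/+ PIO mice, a log2 fold change of 0.61 ± 0.14 (SE; limma, adjusted p = 0.00293) with 1 db/+ PIO library inside the db/db PIO range. Mrps22, a small-subunit protein specific to mitochondria, had 12.4, 15.7, 9.67 and 9.57 FPKM in db/db PIO mice, against 5.69, 6.87, 10.4 and 7.13 FPKM in db/+ PIO mice. Its groups overlapped, with a log2 fold change of 0.59 ± 0.16 (SE; limma, adjusted p = 0.00882). Mrpl3, Mrps18a and Mrps26, named here after their values were seen, were the other members called higher. Quantile normalization left 5 calls, all higher, with 86.0% of the calls over all genes higher, against 61.1%.

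Mrpl36 went the other way. It encodes one of the smallest proteins of the ribosome and had 7.48, 7.15, 8.68, 7.64 and 7.20 FPKM in SCN of db/db PIO mice, against 9.28, 10.6 and 12.6 FPKM as lowest, median and highest of 6 in db/+ PIO mice. The groups did not overlap, and the log2 fold change was −0.43 ± 0.12 (SE; limma, adjusted p = 0.00619). In DRG the same contrast gave the same direction for this gene: 8.91, 8.05 and 9.18 FPKM in db/db PIO mice, against 11.4, 12.4 and 14.9 FPKM as lowest, median and highest of 6 in db/+ PIO mice, a log2 fold change of −0.49 ± 0.12 (SE; limma, adjusted p = 0.0145). It was the single call among 18 members tested there (5.56%), where 8.64% of 4095 genes were called, 4.1% higher and 4.54% lower. The DRG call was lost under quantile normalization (limma, adjusted p = 0.133) and with the replicate number as a block (adjusted p = 0.0582).

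Pioglitazone in db/+ mice led to no call among 33 members tested in SCN (limma, 8 at an unadjusted p under 0.05), where 0.0778% of 5142 genes were called, 0.0389% higher and 0.0389% lower. The fold change was positive in 30 of the 33, with a median of 0.14, against −0.01 over all genes. Mrps30, named after the values were seen because it had the smallest p, differed by 0.39 ± 0.10 (SE; limma, adjusted p = 0.151). The 7 brown adipocyte markers summed to 34.9 to 285 FPKM in db/+ PIO mice, with 2 to 6 of them listed in a library, against 5.68 to 74.6 FPKM in db/+ mice, with 4 or 5 listed, and their part was not tested.

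The mean deviation of the members, the average over members of the log2 value minus the mean of the 4 group means, puts the SCN libraries on 1 scale. It was 0.17 ± 0.11 in db/db PIO mice, −0.05 ± 0.09 in db/db mice, 0.00 ± 0.12 in db/+ PIO mice and −0.14 ± 0.10 in db/+ mice (SD, n = 6 each). The db/db PIO libraries ranged between 0.02 and 0.30, overlapping the db/db range of −0.13 to 0.11. Members share each library, so these values describe the libraries and carry no test.

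**Figure D3:**
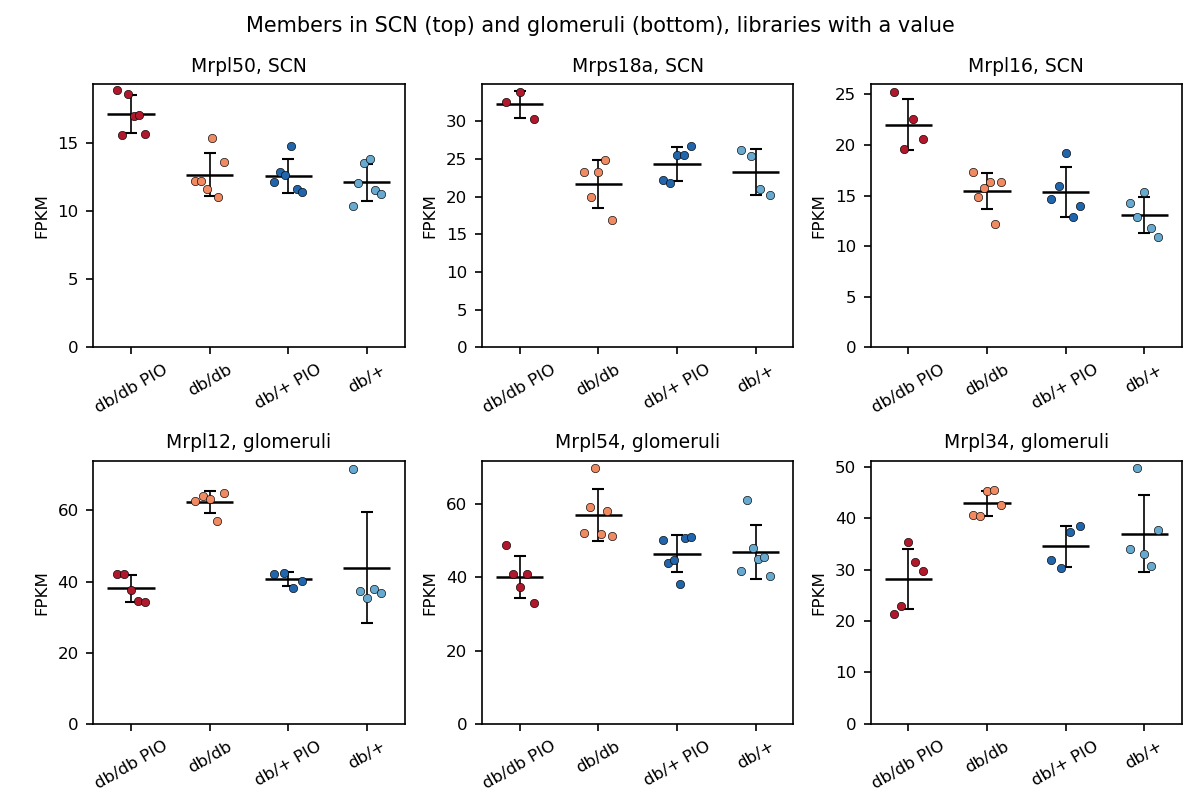
FPKM of 3 members in SCN (top) and 3 in glomeruli (bottom), 1 point per library with a value, with the mean (line) and SD (bar) of each group. In SCN every db/db PIO library lay above every db/db library for all 3 genes, and in glomeruli every db/db PIO library lay below every db/db library.

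In glomeruli of db/db mice 2 of the 25 members tested rose and 0 fell (8% called), where 25.4% of all 4210 genes were called, 16.5% higher and 8.91% lower. Mrpl12, which forms the stalk where translation factors dock, had 62.7, 64.0, 63.1, 56.9 and 64.9 FPKM in db/db mice, against 71.7, 37.5, 35.3, 37.96 and 36.9 FPKM in db/+ mice. Only db/+ replicate 2, at 71.7 FPKM, lay above the db/db libraries and the other 4 lay below all of them. The log2 fold change was 0.55 ± 0.14 (SE; limma, adjusted p = 0.00783) and 0.74 without that replicate (adjusted p = 8.9e-07). Mrpl54, a mitochondria-specific protein of the large subunit, had 51.2, 55.2 and 69.9 FPKM as lowest, median and highest of 6 in db/db mice, against 40.4, 45.3 and 61.1 FPKM in db/+ mice, again with db/+ replicate 2 at the top. The log2 fold change of Mrpl54, 0.28 ± 0.10 (SE; limma, adjusted p = 0.0485), passed narrowly and was lost in 16 of 24 fits that left out 1 library, with adjusted p up to 0.124, and under median-of-ratios rescaling (adjusted p = 0.113). A fit without db/+ replicate 2 called 3 of 23 members, all higher, and its share over all genes is not given. The median of the members without db/+ replicate 2 was 0.06, against 0.05 over all genes. With it the median of the 25 members was 0.01, against 0.04 over all genes, and turned to −0.08 under median-of-ratios rescaling, which called 1 member higher and 3 lower and lowered the share of higher calls over all genes to 48.9%, against 64.9%.

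Pioglitazone in db/db mice lowered 4 of the 25 members tested in glomeruli (16%), Mrpl12, Mrpl54, Mrpl34 and Mrpl28, all of the large subunit, and raised 0, where 23.1% of all 4158 genes were called, 15.9% lower and 7.19% higher. Mrpl12 had 42.1, 42.0, 37.7, 34.6 and 34.2 FPKM in db/db PIO mice, against the 56.9 to 64.9 FPKM of the db/db libraries given above, with no overlap and a log2 fold change of −0.70 ± 0.14 (SE; limma, adjusted p = 0.00188). The db/db PIO values lay with those of db/+ PIO mice, at 42.1, 42.5, 38.1 and 40.3 FPKM. Mrpl54 had 48.8, 40.8, 37.4, 40.9 and 33.0 FPKM in db/db PIO mice, against 51.2 FPKM or more in all db/db libraries, and changed by −0.50 ± 0.11 (SE; limma, adjusted p = 0.00225).

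Mrpl34, the counterpart of a small bacterial large-subunit protein, had 21.4, 22.9, 35.5, 31.5 and 29.7 FPKM in db/db PIO mice, against 40.6, 40.4, 45.3, 45.6 and 42.5 FPKM in db/db mice. The groups did not overlap, and the log2 fold change was −0.61 ± 0.13 (SE; limma, adjusted p = 0.00337). Mrpl28, another counterpart of a bacterial protein, had 17.0, 13.1, 25.1 and 17.8 FPKM in db/db PIO mice, against 27.3, 24.7, 27.6, 32.1 and 25.1 FPKM in db/db mice, with 1 db/db PIO library inside the db/db range and a log2 fold change of −0.59 ± 0.16 (SE; limma, adjusted p = 0.0198). None of the 4 calls was lost when any 1 library was left out. The contrasts of db/db with db/+ and of db/db PIO with db/db share the db/db libraries, so that a high db/db level adds to both.

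The median of the 25 members was −0.07, against −0.04 over all genes, and 18 of the 25 had a negative fold change. The 7 tested with an Mrps symbol gave no call (limma, 1 at an unadjusted p under 0.05). Median-of-ratios rescaling turned the median of the members to 0.06 and that of all genes to 0.08, with 4 members called lower and 4 higher, and raised the share of higher calls over all genes to 59.1%, against 31.1%. Among respiratory chain genes 2 of 8 complex I subunits and 4 of 7 of complexes II to V were lower. Their medians, −0.28 and −0.43, lay further below 0 than the −0.07 of the 25 members. Gadd45gip1, a large-subunit protein under another symbol, fell by 0.28 ± 0.08 (SE; limma, adjusted p = 0.0197). Tsfm, the elongation factor that recharges mitochondrial Tufm, fell by 0.44 ± 0.11 (SE; limma, adjusted p = 0.00783) and Sars2, the mitochondrial seryl-tRNA synthetase, by 0.53 ± 0.15 (SE; limma, adjusted p = 0.0292). They were the calls among 1, 5 and 5 genes tested of their lists, in that order, and Esrrb, an orphan nuclear receptor, fell by 1.19 ± 0.28 (SE; limma, adjusted p = 0.00464) among 3 nuclear regulators.

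Tubule markers were also read in glomeruli, where only 4 of the 9 collecting duct markers could be tested in each of these contrasts. Those of the thick ascending limb and distal tubule are not given here. All 4 of the collecting duct markers tested rose in db/db against db/+ mice and all 4 tested fell in db/db PIO against db/db mice. The 9 collecting duct markers summed to 8.78 to 64.9 FPKM in db/db PIO mice, against 46.8 to 102 FPKM in db/db mice and 14.8 to 108 FPKM in db/+ mice, with Aqp2, Aqp3, Scnn1g and Hsd11b2 at 0 in every db/db library. The 11 proximal tubule markers summed to 22.9 to 163 FPKM in db/db PIO mice, against 41.3 to 440 FPKM in db/db mice and 30.3 to 4812 FPKM in db/+ mice. The collecting duct markers with a value in a library numbered 4 to 9 in db/db PIO, 4 to 5 in db/db and 5 to 9 in db/+ mice. The highest proximal tubule sum belonged to db/+ replicate 2, the library with the high Mrpl12 and Mrpl54, in which 4 of the 11 markers had a value. In cortex, which holds mostly tubules, the 14 members compared in db/+ mice had medians 1.11 to 4.26 times those in glomeruli. Of the called members, Mrpl34 stood at 87.8 FPKM in cortex, against 34.0 in glomeruli, and Mrpl54 at 69.3, against 45.3. Mrpl50 and Mrpl16, not called in glomeruli, stood at 72.8, against 17.1, and at 62.1, against 23.4 FPKM. The part of tubule RNA in the glomerular differences was not tested.

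Between db/db PIO and db/+ PIO glomeruli 0 of 28 members were called (limma, 4 at an unadjusted p under 0.05), where 8.41% of 4255 genes were (4.23% higher, 4.18% lower), and their median was −0.001, with its sign turned by 5 of 9 other settings. Between db/+ PIO and db/+ glomeruli 0 of 25 members were called (limma, 0 at an unadjusted p under 0.05), where 0% of 4419 genes were, with a median of −0.05.

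The response to pioglitazone in glomeruli was tested against that in SCN, with both tissues fitted together. Of 16 members tested 4 had a lower response in glomeruli than in SCN and 0 a higher one (25%), where 21.3% of 2564 genes were called, 14.5% lower and 6.79% higher. For Mrpl34 the log2 fold change was −0.61 in glomeruli and 0.42 in SCN, a difference of −1.04 ± 0.22 (SE; limma, adjusted p = 0.000662). The rise of Mrpl34 in SCN did not pass the test by itself (limma, adjusted p = 0.0913): its 6 libraries of db/db PIO mice ranged between 20.4 and 38.1 FPKM, median 32.6, against 19.9 to 27.7 FPKM, median 21.1, in db/db mice. For Mrpl54 the difference was −0.54 ± 0.16 (SE; limma, adjusted p = 0.0102), with −0.50 in glomeruli and 0.04 in SCN. Mrpl16 differed by −0.41 ± 0.13 (SE; limma, adjusted p = 0.0216) and Mrpl50 by −0.36 ± 0.11 (SE; limma, adjusted p = 0.0201), both with a call in SCN and values of 0.07 and 0.05 in glomeruli that did not pass the test.

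**Figure D4:**
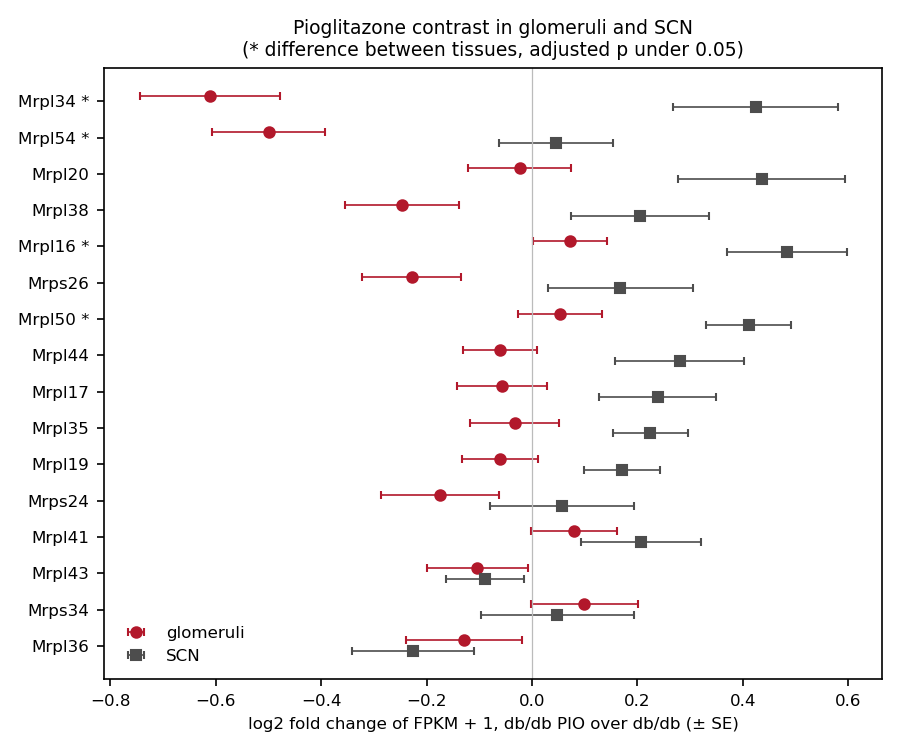
Log2 fold change of FPKM + 1 with its SE for db/db PIO over db/db mice in glomeruli (circles) and SCN (squares), for the 16 members tested in both tissues, ordered by the difference. The response in glomeruli was below that in SCN for 14 of the 16, and the star marks the 4 with an adjusted p under 0.05 for the difference.

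The fold change was lower in glomeruli than in SCN for 14 of the 16 members and the median difference was −0.32, against −0.02 over all genes. Quantile normalization left the calls of 2 members, with 54.1% of the calls over all genes higher, against 31.9%. Complex I subunits differed in the same direction, with 6 of 7 called and a median of −0.80, as did 3 of 5 subunits of complexes II to V, whereas 0 of 16 cytosolic ribosomal proteins were called (limma, 1 at an unadjusted p under 0.05), with a median of −0.17. For the contrast of db/db with db/+ the difference between glomeruli and SCN gave 0 calls among 17 members (limma, 1 at an unadjusted p under 0.05), where 15.9% of 2692 genes were called, 9.14% higher and 6.76% lower, and a median of −0.17. Without db/+ replicate 2 of glomeruli 1 of 15 members was called, higher, and the share of all genes called in that fit is not given.

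In cortex of db/db mice 1 of 18 members tested was called (5.56%), where 10.3% of all 3925 genes were, 4.33% higher and 6.01% lower. Mrpl50 had 59.1, 58.0, 61.2 and 62.4 FPKM in db/db mice, against 75.4, 68.6, 70.2 and 83.5 FPKM in db/+ mice, with no overlap. It fell by 0.30 ± 0.09 (SE; limma, adjusted p = 0.0435), and the call was lost in 11 of 24 fits that left out 1 library, with adjusted p up to 0.125, and in 5 of 8 other settings. The median of the 18 members was 0.02, against 0.00 over all genes. Without db/db replicate 6 the median turned to −0.03, against 0.07 over all genes, and 2 of 17 members were called, both lower. The share of all genes called in that fit is not given.

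Pioglitazone in db/db mice lowered 1 of the 23 members tested in cortex (4.35%), Mrpl43, and raised 0, where 3.24% of 3890 genes were called, 2.67% lower and 0.566% higher. It had 30.9, 32.6, 27.1, 26.8 and 29.2 FPKM in db/db PIO mice, against 35.9, 38.3, 44.8, 38.1 and 73.5 FPKM in db/db mice. The groups did not overlap, and the 73.5 FPKM of db/db replicate 6 stood far above the rest. The log2 fold change was −0.59 ± 0.16 (SE; limma, adjusted p = 0.0464) and −0.41 without that library (adjusted p = 0.0456), but the call was lost in 17 of 24 fits that left out 1 library, with adjusted p up to 0.0924, and in 6 of 9 other settings. The fold change was negative in 22 of the 23 members, with a median of −0.28, against −0.04 over all genes. Without db/db replicate 6 it was negative in 21 of 22, with a median of −0.19, against −0.10 over all genes. That library had a mean deviation of the members of 0.61, against −0.06 to 0.21 in the other 5 db/db libraries, and a summed FPKM of 601310, against 210094 to 246975. The 6 db/db PIO libraries lay between −0.26 and −0.12. Cytosolic ribosomal proteins and complex I also had negative medians, of −0.43 and −0.37, with 0 of 21 and 0 of 5 called (limma, 2 and 0 at an unadjusted p under 0.05).

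More members were called in cortex between db/db PIO and db/+ PIO mice, where 5 of 21 members were lower and 0 higher (23.8%), and 19.7% of 3865 genes were called, 12.6% lower and 7.09% higher. Without db/db replicate 6, which enters the fit through the shared variance and the filter, 9 of 21 were called, all lower. The 19.7% belongs to the fit with all libraries and not to this one. Mrpl44, a mitochondria-specific protein with the fold of a ribonuclease, had 23.1, 25.6 and 27.8 FPKM as lowest, median and highest of 6 in db/db PIO mice, against 36.1, 37.4 and 37.7 FPKM in the 3 db/+ PIO libraries with a value. Its groups did not overlap, and it fell by 0.52 ± 0.11 on the log2 scale (SE; limma, adjusted p = 0.00209). The untreated db/db libraries, at 25.9, 32.7, 35.0 and 28.2 FPKM, lay between these groups and overlapped the first of them. Mrps22 had 16.6, 13.9, 15.8, 18.5 and 14.8 FPKM in db/db PIO mice, against 21.7, 20.9, 22.5, 24.0 and 24.7 FPKM in db/+ PIO mice, again with no overlap, and fell by 0.49 ± 0.12 (SE; limma, adjusted p = 0.00562).

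Mrpl38, a large-subunit protein with a fold known from lipid-binding proteins, had 42.1, 42.0, 38.3 and 38.5 FPKM in cortex of db/db PIO mice, against 55.7, 45.8 and 56.8 FPKM in db/+ PIO mice, and fell by 0.38 ± 0.11 (SE; limma, adjusted p = 0.0240). Mrpl50 fell by 0.26 ± 0.09 (SE; limma, adjusted p = 0.0418) and Mrpl16 by 0.22 ± 0.08 (SE; limma, adjusted p = 0.0466), both of which rose in SCN in the same contrast. The difference between cortex and SCN was not tested. The calls of Mrpl44 and Mrps22 held in all fits without 1 library in which they were tested. Mrpl44 was not tested in fits that left out 1 of its 3 db/+ PIO libraries. The calls of Mrpl38, Mrpl50 and Mrpl16 were lost in 2 of 21, 7 of 24 and 13 of 24 fits without 1 library. Median-of-ratios rescaling left 1 of the 5 calls, that of Mrpl44, and gave an adjusted p of 0.0533 for Mrps22 (limma), with 48.7% of the calls over all genes higher, against 36.0% before.

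**Figure D5:**
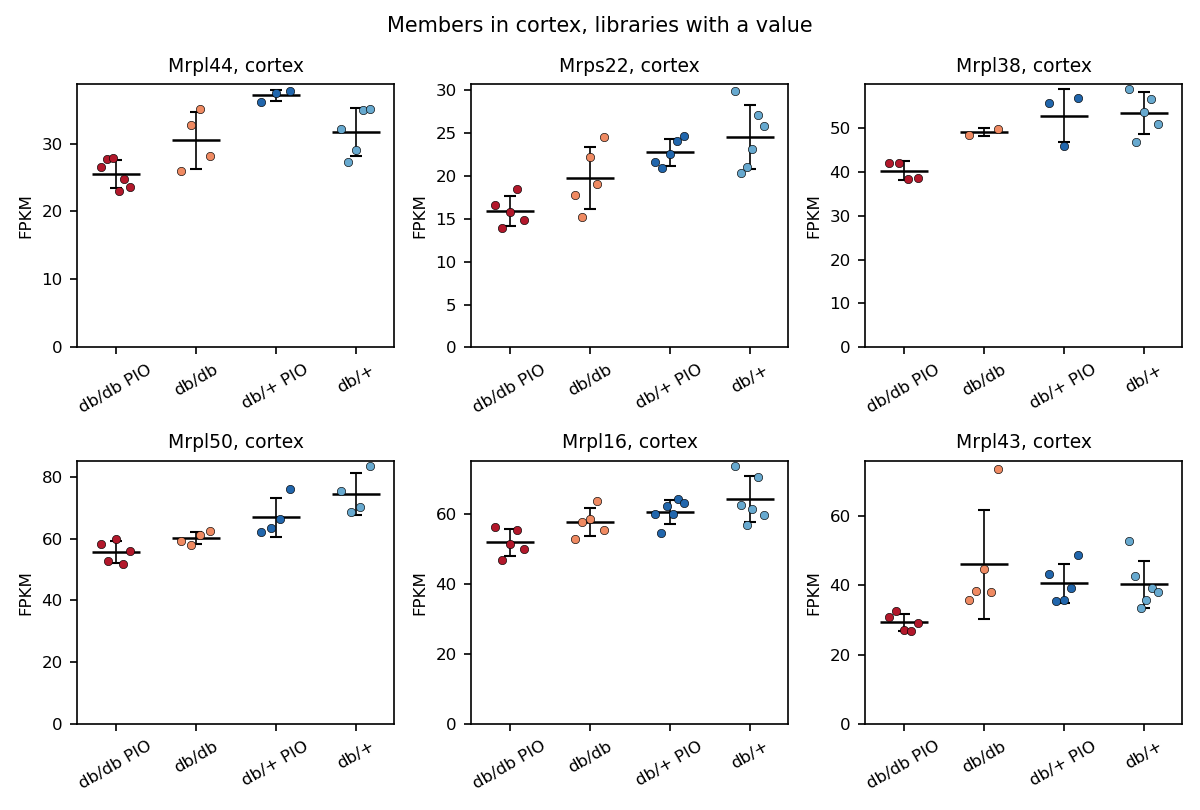
FPKM of 6 members in cortex, 1 point per library with a value, with the mean (line) and SD (bar) of each group. The db/db PIO libraries were lowest on average for all 6 genes, and db/db replicate 6 is the single point of Mrpl43 at 73.5 FPKM.

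The 21 members had a median of −0.22 in this contrast, against −0.02 over all genes, while the 17 cytosolic ribosomal proteins had a median of 0.25, with 1 higher, and the 3 complex I subunits a median of 0.14 with 0 called (limma, 0 at an unadjusted p under 0.05). Of genes that act with the mitochondrial ribosome, Gadd45gip1 fell by 0.52 ± 0.16 (SE; limma, adjusted p = 0.0243), Ears2, the mitochondrial glutamyl-tRNA synthetase, by 0.42 ± 0.11 (SE; limma, adjusted p = 0.00835), Ftsj2, a methyltransferase of mitochondrial ribosomal RNA, by 0.34 ± 0.11 (SE; limma, adjusted p = 0.0321) and Ngrn, an assembly factor, by 0.36 ± 0.13 (SE; limma, adjusted p = 0.0466). Of the 4 nuclear regulators tested 2 rose, Esrrb by 0.93 ± 0.29 (SE; limma, adjusted p = 0.0312) and Ppargc1b by 0.51 ± 0.17 (SE; limma, adjusted p = 0.0442). All 6 macrophage markers tested were lower, and the 10 listed summed to 22.9 to 38.5 FPKM in db/db PIO mice, with 7 to 9 of them listed in a library, against 42.3 to 109 FPKM in db/+ PIO mice, with 5 to 8 listed. The part of these cells in the falls was not tested. Between db/+ PIO and db/+ cortex 0 of 19 members were called (limma, 0 at an unadjusted p under 0.05), where 0.025% of 4004 genes were, with a median of −0.04.

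In DRG of db/db mice 0 of 20 members tested were called (limma, 2 at an unadjusted p under 0.05), where 4.13% of 3829 genes were, 2.79% higher and 1.33% lower. Of the 20, 16 had a positive fold change, with a median of 0.11, against 0.01 over all genes. The members with the smallest p were Mrps31, at 0.23 ± 0.10 (SE; limma, adjusted p = 0.204), Mrpl52, at 0.26 ± 0.12 (SE; limma, adjusted p = 0.217), and Mrpl35, at −0.14 ± 0.07 (SE; limma, adjusted p = 0.266). Mrps31 had 11.7, 12.9, 13.8 and 11.8 FPKM in db/db mice, against 9.87, 11.2 and 10.7 FPKM in db/+ mice, which did not overlap.

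Pioglitazone in db/db mice led to 0 calls among 21 members in DRG (limma, 2 at an unadjusted p under 0.05), where 0% of 3794 genes were called. The fold change was negative in 20 of the 21, with a median of −0.12, against −0.01 over all genes, and the smallest p belonged to Mrpl36, at −0.31 ± 0.12 (SE; limma, adjusted p = 0.466). Mrpl38 and Mrpl44 followed at −0.19 each (limma, adjusted p = 0.506 and 0.643). Without db/db replicate 3, whose 10 skeletal muscle markers summed to 483 FPKM, against 1.90 to 128 FPKM in the other 4 db/db libraries, the fold change was negative in 14 of 17 and the median was −0.06. Between db/db PIO and db/+ PIO the 18 members had a median of −0.10, which quantile normalization turned to 0.01, and between db/+ PIO and db/+ mice 0 of 18 were called (limma, 2 at an unadjusted p under 0.05), where 0% of 4153 genes were, with a median of 0.10. In both of these, db/+ PIO replicates 1 and 2 had mean deviations of 0.32 and 0.29, against −0.08 to −0.01 in the other 4 db/+ PIO libraries, and summed FPKM of 269263 and 234078, against 140164 to 172401. Leaving out replicate 1 moved the median of db/db PIO against db/+ PIO to −0.06 and leaving out replicate 2 to −0.06.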

How the data were processed

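RNA-Seq of SCN, DRG, glomeruli and cortex was made per the labels with TruSeq mRNA libraries, which do not mark strand. The authors aligned the reads to the mouse build NCBI 37 (mm9) with TopHat and Bowtie and deposited FPKM values per gene and library, made with Cufflinks. The sources used here give no versions of these tools. Only FPKM values were used, so that the depth of each library is unknown, and a count test could not be run. Columns of gene symbols and FPKM were read for each library.

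Members and lists were chosen with earlier results of these data known. Values of 0 were set to missing and log2(FPKM + 1) was fitted with limma 3.58.1 in R 4.3.3, with the 4 groups of a tissue in 1 fit and a trended variance. Genes needed an FPKM of at least 1 in 5 libraries of the tissue and 3 values in each group compared. P-values were adjusted by the Benjamini-Hochberg method over all genes tested, with a threshold of 0.05. Differences between glomeruli and SCN were fitted over the 48 libraries of both. For db/db against db/+ and db/db PIO against db/db, the members named are those past the threshold, up to 10, or the 3 with the smallest p where none passed. For other comparisons they are up to 5 past the threshold. Genes of the fixed lists past the threshold could be named, up to 5 a list, as could the 5 members with the highest and lowest medians in db/+ mice. Figures and sums used Python 3.11.15 with pandas 2.3.3, numpy 2.4.6, scipy 1.17.1 and matplotlib 3.10.9. The fits were tested on simulated data with known changes. Of 1.25-fold rises 8% (cortex) to 54% (DRG) were recovered, both for db/db PIO against db/db. Of 1.5-fold rises 46% (cortex) to 84% (DRG) were recovered, both for db/db against db/+. A member without a call may thus have changed by such amounts.

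Libraries are separate samples of a group per the labels, and no 2 held identical values. The study's methods name 6 mice for each group, and the libraries of a group in a tissue were taken as separate mice. A mouse may have given several tissues, which the fit over glomeruli and SCN treats as independent. The alternatives were a pseudocount of 0.1, each 0 entered as a value, quantile normalization, rescaling by the median of ratios, dropping the filter, fits to only the groups compared, array weights, at least 5 values in each group, the replicate number as a block, and leaving out each library.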

Additional observations from a re-analysis of the deposited data

Results flagged for a closer look

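Of 63 groups of 4 to 10 values checked for a library that stood apart, 8 were flagged, and chance alone flags about 1 group in 20. In glomeruli of db/db mice replicate 4 had the lowest Mrpl12 value, at 56.9 FPKM with the next at 62.7 FPKM. In glomeruli of db/+ mice replicate 2 stood apart 3 times: for Mrpl12 at 71.7 FPKM with the next at 37.96 FPKM, for Mrpl54 at 61.1 FPKM with the next at 47.9 FPKM, and for the mean deviation of all members at 0.18 with the next at 0.03. Its proximal tubule markers summed to 4812 FPKM, against 30.3 to 322 FPKM in the other 5 libraries, and their part was not tested. In cortex of db/db mice replicate 6 had 73.5 FPKM of Mrpl43 with the next at 44.8 FPKM, in the library with the highest summed FPKM of all. In DRG of db/db mice replicate 1 had the lowest Mrpl44 value, at 16.7 FPKM with the next at 18.7 FPKM. The mean deviation stood apart in replicate 4 of SCN of db/db mice, at 0.11 with the next at −0.04, and in replicate 5 of DRG of db/+ mice, at 0.028 with the next at −0.06.

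In a test of the difference in pioglitazone response between glomeruli and SCN, 21.3% of 2564 genes were called, 14.5% lower and 6.79% higher. The 4 members called, for db/db PIO against db/db, were Mrpl34 (−1.04), Mrpl54 (−0.54), Mrpl16 (−0.41) and Mrpl50 (−0.36), on the log2 scale. Of these, the differences of Mrpl16 and Mrpl50 were lost under quantile normalization, which moved the median difference of all genes by more than 0.1, and that of Mrpl50 also under median-of-ratios rescaling.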

How the results depend on the processing

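Where a setting changed a result, the cause was not tested unless fewer genes or samples entered the fit. The shares of all genes called belong to the main fits. Counts of members under other settings, or without a library, stand without such a share. Each 0 entered as a value lost all 27 calls of members named by rule, with 0 members called in SCN for db/db against db/+, for db/db PIO against db/db and for db/db PIO against db/+ PIO, 0 in DRG for the last of these, 1 in glomeruli for each of the first pair of contrasts, 0 in cortex for all 3 and 0 for the difference between glomeruli and SCN under pioglitazone. It reversed Mrpl16 (−1.02) and Mrps18a (−1.22) for db/db PIO against db/db and Mrpl16 (−0.34) and Mrpl20 (−0.54) for db/db PIO against db/+ PIO in SCN, Mrpl35 (0.38) and Mrpl38 (0.19) in DRG, Fastkd2 (0.12) and Sars2 (0.060) in glomeruli, Ears2 (0.038), Gadd45gip1 (0.15), Mrpl38 (0.71), Mrpl44 (2.10) and Mrpl50 (0.80) in cortex, and the differences of Mrpl16 (1.85) and Mrpl50 (0.32). Quantile normalization moved the median of all genes by up to 0.50 within SCN and gave 20, 0 and 5 called members in SCN in the same order, 0 in DRG for db/db PIO against db/+ PIO, 0 in cortex for db/db against db/+ and for db/db PIO against db/db, and 10 and 2 for the differences between tissues under diabetes and pioglitazone. Array weights gave 0 and 9 in SCN, 1 in DRG and 5 in glomeruli for db/db against db/+, 2 in cortex, and 1 and 7 for the differences. Median-of-ratios rescaling gave 4 and 8 in glomeruli and 0, 0 and 1 in cortex. Fits to only the groups compared gave 1 in glomeruli for db/db against db/+, and 0, 0 and 9 in cortex. Asking for 5 values in each group, so that fewer genes entered, left 1 in SCN for db/db PIO against db/db and 3 for db/db PIO against db/+ PIO, 0 in DRG, and 0 and 3 in cortex. No filter on low values left 1 in glomeruli for db/db against db/+ and 0 in cortex for db/db PIO against db/db.

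Same-numbered libraries correlated at −0.47 to 0.56 in their deviations and in no comparison did all 6 libraries match best with their own number, so the numbers were not taken as pairs. With the replicate block 0 members were called in DRG for db/db PIO against db/+ PIO, 0, 0 and 2 in cortex, and 7 for the difference under pioglitazone. With 1 library left out the called members numbered 0 to 1 (db/db against db/+), 2 to 6 (db/db PIO against db/db) and 5 to 11 (db/db PIO against db/+ PIO) in SCN, 0 to 2 in DRG for the last contrast, 1 to 3, 4 to 5 and 0 to 1 in glomeruli, 0 to 2, 0 to 1 and 2 to 9 in cortex, and 0 to 1 and 3 to 7 for the differences. Of the 27 calls of members named by rule 19 passed the threshold in all such fits that tested them and 8 did not. This count leaves out Mrpl3, Mrps18a and Mrps26 for db/db PIO against db/+ PIO in SCN. A member with only 3 values in a group was not tested in fits without 1 of those libraries. The depth of the libraries is unknown, and the share of values at 0 limits which members could be tested.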

Other observations

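The 11 members at 0 in all libraries had a median of 6 annotated transcripts (2 to 11) and 2255 exonic bases, against 3 transcripts (1 to 11) and 1642 exonic bases for the 62 members with a value. Among members without a call, Mrpl52 was the most abundant in SCN, DRG and glomeruli of db/+ mice, by medians over 5, 4 and 2 libraries with a value. In SCN the share of member entries at 0 was 64.2% in db/db PIO mice, 64.6% in db/db mice, 59.4% in db/+ PIO mice and 50.9% in db/+ mice.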
